A study of Sus scrofa with 6 samples.

Results

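The mRNA levels of the proteasome, the protease that degrades ubiquitin-tagged proteins, were examined in pig intestinal epithelial cells with and without a bile acid. Its genes were found by name: all rows whose deposited gene name starts with PSM, then a letter from A to G and a number, were taken and summed per gene ID. The name pattern picked out 129 of 63041 transcript rows and 44 of 31908 gene IDs. Of these 44, 42 were subunits, activators or assembly factors of the proteasome. PSMC3IP, a factor of meiotic recombination, and PSME3IP1, a nuclear protein that binds PSME3, share only the start of the name and were kept apart. The cells were IPEC-J2, a line derived from the pig small intestine. The CON group (n = 3) received PBS and the CDCA group (n = 3) received 50 μM chenodeoxycholic acid (CDCA), a primary bile acid, for 24 h before RNA was extracted. A single line was used. The study calls the libraries of a group biological replicates, without saying in the sources used here whether they came from separate cultures, so p-values measure the spread between these libraries.

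The 26S proteasome consists of a barrel, the 20S core, capped by 19S regulatory particles. The outer rings of the barrel are built from alpha subunits (PSMA genes) and the inner rings from beta subunits (PSMB genes), of which PSMB5, PSMB6 and PSMB7 carry the catalytic sites. Interferon-inducible counterparts (PSMB8, PSMB9 and PSMB10) replace these in the immunoproteasome, which shapes the peptides shown on class I molecules. The 19S particle holds a ring of ATPases (PSMC genes) that unfolds the substrate, and non-ATPase subunits (PSMD genes) that bind and remove ubiquitin. Dedicated chaperones (PSMG genes, PSMD5, PSMD9 and PSMD10) help the rings assemble and do not stay in the finished particle. The transcription factor NFE2L1 is known to raise the genes of many subunits together when proteasome capacity is short.

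Levels are given in TPM, a share of all transcripts in a library that is corrected for transcript length. Differences were tested with limma on log2(TPM + 1) in the 8708 genes that averaged 1 TPM or more over the libraries, and a gene was said to rise or fall where the FDR was under 0.05. On that scale the change of a gene of low level is understated. Many genes differed between the groups: 29.3% of the tested genes were higher and 23.9% were lower in CDCA, with a median log2 fold change of 0.05 over all tested genes. The mRNAs encoded by mitochondrial DNA fell from a share of 13.8% to 15.0% of all listed TPM in the CON libraries to 2.90% to 3.45% in the CDCA libraries, so the scaling of all other genes was also tried without them. In bulk RNA a change in the RNA content of the cells cannot be told apart from a change in a gene's own level. Of 7 epithelial markers found (no ID was found for KRT19), CLDN4 (224.8 to 806.5 TPM on average), EPCAM (121.9 to 160.2 TPM) and KRT18 (65.56 to 75.15 TPM) rose. KRT8 averaged 226.3 TPM in CON and 208.5 TPM in CDCA and did not pass, though it was lower (limma FDR 0.0067) when mtDNA-encoded genes were left out of the totals, where KRT18 no longer passed (FDR 0.41). The other 3, CDH1, VIL1 and CDX2, were under 1 TPM in every library. The 8 markers of leukocytes, endothelium and fibroblasts found in the table (no ID was found for VWF) summed to 2.94 to 4.49 TPM in CON and 6.80 to 7.75 TPM in CDCA. Among them CD68, a lysosomal protein, had CON values of 0, 0 and 0.26 TPM and CDCA values of 5.33, 4.75 and 4.44 TPM. PECAM1 fell (limma FDR 0.025), a call lost in 6 other settings (FDR up to 0.085), and PTPRC, DCN, COL3A1 and PDGFRB were at most 0.08 TPM. COL1A1 ranged from 0.54 to 0.94 TPM and CD3E from 0.25 to 1.32 TPM over the libraries, and neither was tested. The part of these genes in the results was not tested.

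With TPM as deposited, proteasome mRNA took a larger share of the RNA in CDCA-treated cells. Most tested subunits of the core and of the regulatory particle showed rises of modest size, and the assembly chaperones PSMG3 and PSMG4 were lower. Of the 42 genes, 37 passed the filter on low values and 5 did not (PSMA5, PSMA8, PSMB11, PSMC3 and PSMD10). In the 37 tested genes, 22 rose (59.5%, against 29.3% of all tested genes), 4 fell (10.8%, against 23.9%) and 11 did not pass the test, where 53.2% of all tested genes passed in either direction. Their log2 fold changes ranged from -1.26 to 0.90 with a median of 0.30. Of the 37, PSMG3 fell by more than 1, against 3.90% of all tested genes, and no rise passed 1, a size that 3.51% of all tested genes passed upward. That count rests on the 1 TPM added before the logarithm: for PSMD11, which is low, the log2 fold change was 0.88 with it and 1.22 with 0.1 TPM added. The 3 CDCA libraries lay above the 3 CON libraries for 23 members and below them for 4, against 33.7% and 27.8% of all tested genes.

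**Figure D1:**
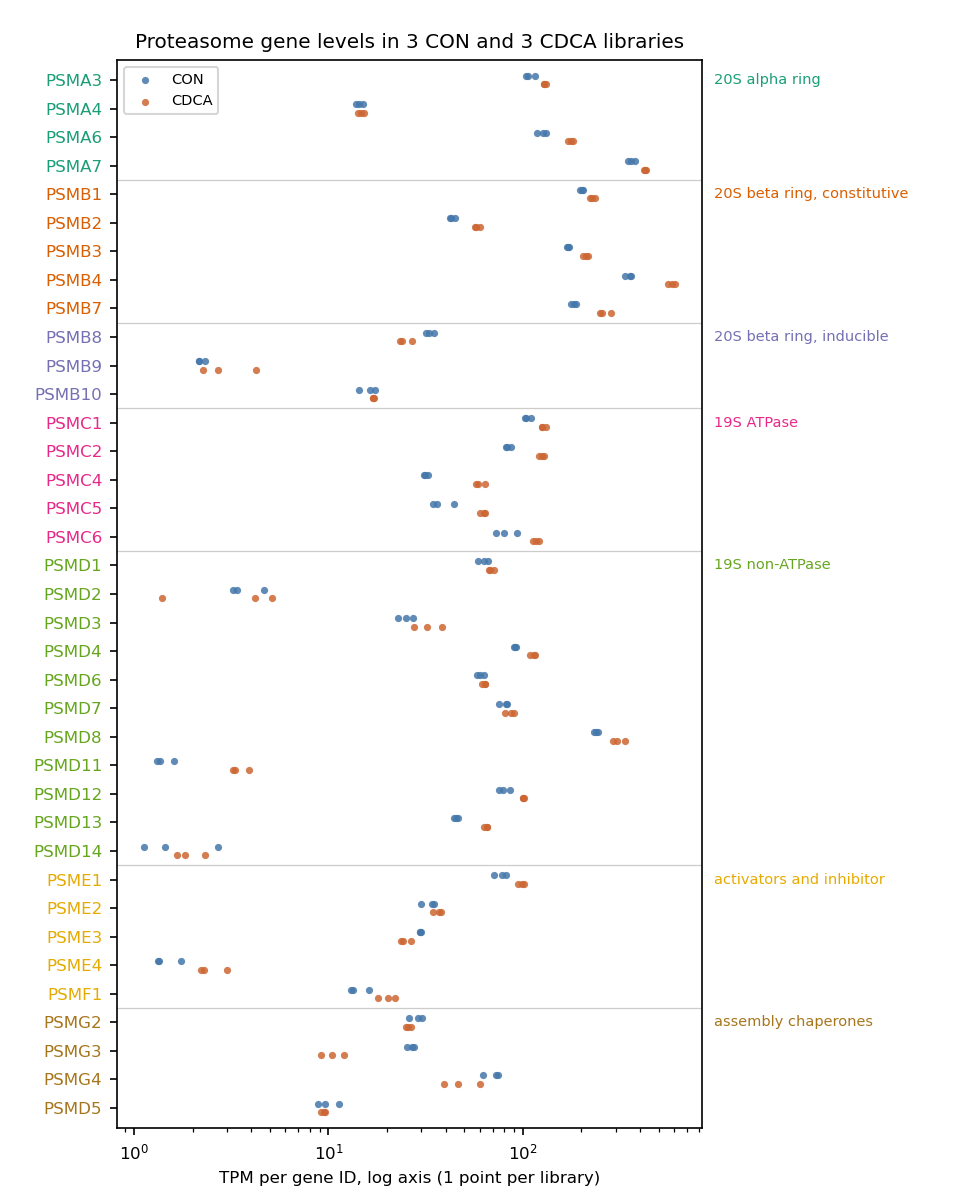
TPM of the 37 tested proteasome genes (horizontal, log axis) in each of the 3 CON and 3 CDCA libraries, 1 point per library, with genes grouped by their part of the complex. Levels run from under 3 TPM for PSMD14 to 608 TPM for PSMB4 in CDCA, and the 2 groups separate for most core and regulatory subunits.

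Listed levels differed widely between subunits that the finished particle holds in fixed numbers, with means down to 0.28 TPM for PSMA5 and 0.88 TPM for PSMC3. Whether such low values reflect the RNA or the way reads were assigned to IDs was not tested. Averaged over the 6 libraries, 11 of the 37 tested members lay at 100 TPM or more, 20 between 10 and 100 TPM and 6 under 10 TPM. The median level of the 37 was 54.8 TPM, against 7.19 TPM over all tested genes. Their libraries also varied less, with a median residual SD of 0.077 on the log2 scale against 0.112 over all tested genes. Of the 31 members at 10 TPM or more, 20 rose, 4 fell and 7 did not pass. Calls were more frequent at higher levels over all genes: of the 5209 genes averaging 5 TPM or more, 34.3% were higher and 30.6% lower. Of the 32 members at that level, 20 were higher and 4 lower. Of the 6 members under 10 TPM (PSMB9, PSMD2, PSMD11, PSMD14, PSME4 and PSMD5), PSMD11 and PSME4 rose and the other 4 did not pass. Across the 37 genes the mean level and the log2 fold change had a Spearman rho of 0.29, which describes genes of the same 6 libraries.

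In the alpha ring, which gates the entry to the core, 3 of 4 tested subunits rose, with a median log2 fold change of 0.24, but the calls of PSMA3 and PSMA7 were lost when libraries were scaled without mtDNA-encoded genes. The ID named PSMA6, whose description names another gene and whose values are uncertain, changed most: the CON libraries held 132, 126 and 118 TPM and the CDCA libraries 177, 170.2 and 180.5 TPM. The groups did not overlap (log2 fold change 0.49, SE 0.05, limma FDR 0.0003). PSMA7 was the most abundant alpha mRNA, with 361.7 ± 13 TPM in CON and 424.3 ± 6.9 TPM in CDCA (SD, n = 3; log2 fold change 0.23, limma FDR 0.0025). PSMA3 rose from 108.1 ± 6.0 to 129.4 ± 2.4 TPM (SD, n = 3; log2 fold change 0.26, limma FDR 0.004). PSMA4 changed least, at 15.1, 14.3 and 13.9 TPM in CON and 14.7, 14.3 and 15.2 TPM in CDCA, which overlapped (log2 fold change 0.03, SE 0.05, limma FDR 0.72). PSMA5 was at most 0.44 TPM in any library and was not tested. PSMA8, the alpha subunit of male germ cells, was listed at 0 throughout.

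The 5 constitutive beta subunits found by name all rose, with a median log2 fold change of 0.42, although PSMB1 did not pass when libraries were scaled without mtDNA-encoded genes. PSMB4, a structural subunit of the inner ring, held 361, 354 and 335 TPM in CON and rose to 558, 608 and 587 TPM in CDCA. Every CDCA library exceeded every CON library by far more than the spread within a group, with a ratio of the means of 1.67 (log2 fold change 0.74, SE 0.05, limma FDR 4.3e-05). PSMB7, which carries the trypsin-like site, measured 183, 187.5 and 177 TPM in CON and 249, 283 and 254 TPM in CDCA. Its groups were likewise apart, at a ratio of 1.44 (log2 fold change 0.52, SE 0.06, limma FDR 0.00039). PSMB2 and PSMB3, both without catalytic activity, changed by 0.42 and 0.30 on the log2 scale (limma FDR 0.00033 and 0.00061). PSMB1 changed least, from 202, 204 and 196 TPM in CON to 221, 235 and 228 TPM in CDCA. This small difference still exceeded the spread between libraries (log2 fold change 0.18, SE 0.04, limma FDR 0.006). Of the catalytic subunits, PSMB6 was found by its description rather than its name, and no ID was found for PSMB5.

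Of the 3 tested inducible counterparts, PSMB8 fell and the others did not pass, with a median log2 fold change of 0.08. PSMB8, which replaces PSMB5, was 34.9, 32.9 and 31.6 TPM in CON and 23.3, 26.9 and 23.9 TPM in CDCA. All 3 CDCA libraries lay under the CON libraries, with a ratio of 0.746 (log2 fold change -0.41, SE 0.07, limma FDR 0.0027). PSMB9, which replaces PSMB6, lay at 2.31, 2.16 and 2.15 TPM in CON and 2.71, 2.26 and 4.25 TPM in CDCA. The groups overlapped and 1 CDCA library was well above the others (log2 fold change 0.32, SE 0.18, limma FDR 0.18). PSMB10, which replaces PSMB7, was at 14.4, 16.3 and 17.3 TPM in CON and 17.1, 16.9 and 16.9 TPM in CDCA, and the groups again overlapped (log2 fold change 0.08, SE 0.07, limma FDR 0.35). PSMB11, the beta subunit of thymic cortical epithelium, was listed at 0 in every library. Within each library, the level of PSMB10 per PSMB7 was 0.0786, 0.0869 and 0.0978 in CON and 0.0684, 0.0599 and 0.0667 in CDCA, with every CDCA library below the CON libraries. The ratio of PSMB9 to PSMB6 ran from 0.00929 to 0.0104 in CON and from 0.00800 to 0.0164 in CDCA, which overlapped. These ratios were formed with the values known and were not tested.

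All 5 tested ATPases of the 19S base rose, with a median log2 fold change of 0.57. PSMC4 had the largest log2 fold change upward of the tested members on the log2(TPM + 1) scale, just ahead of PSMD11, whose ratio of the means was larger. Its levels were 30.9, 32.5 and 31.3 TPM in CON against 58.6, 63.8 and 57.6 TPM in CDCA. The ratio of the means was 1.90, with no overlap (log2 fold change 0.90, SE 0.05, limma FDR 2.9e-05). PSMC5 was 38.38 ± 5.2 TPM in CON and 62.3 ± 1.8 TPM in CDCA (SD, n = 3; log2 fold change 0.69, limma FDR 0.00094). For PSMC2 the values were 84.07 ± 2.3 and 125.4 ± 3.8 TPM (SD, n = 3; log2 fold change 0.57, limma FDR 6.3e-05). PSMC6 had the widest spread of these in CON, with 92.9, 80.2 and 72.3 TPM, and rose to 112, 121 and 117 TPM (log2 fold change 0.51, SE 0.09, limma FDR 0.0031). PSMC1 changed least, from 109.5, 104 and 102 TPM to 126, 132 and 125 TPM, without overlap (log2 fold change 0.28, SE 0.04, limma FDR 0.0018). PSMC3, the remaining ATPase, lay between 0.50 and 1.34 TPM, and was not tested.

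Of the 11 non-ATPase subunits of the 19S particle, 6 rose and 5 did not pass, with a median log2 fold change of 0.31. PSMD11, a scaffold subunit of the lid, had the largest change and a low level: 1.61, 1.32 and 1.36 TPM in CON and 3.22, 3.88 and 3.29 TPM in CDCA. The ratio of the means was 2.42 and the log2 fold change 0.88 (SE 0.11, limma FDR 0.00064). PSMD13 rose from 45.22 ± 1.0 to 64.38 ± 1.4 TPM (SD, n = 3; log2 fold change 0.50, limma FDR 9.3e-05). PSMD8, the most abundant of this part, rose from 238.1 ± 6.1 to 309.9 ± 23 TPM (SD, n = 3; log2 fold change 0.38, limma FDR 0.0018). PSMD4, a ubiquitin receptor, and PSMD12 rose by 0.31 and 0.32 on the log2 scale (limma FDR 0.00062 and 0.0021). PSMD3 lay at 27.2, 25.1 and 22.9 TPM in CON and 27.5, 38.5 and 32.1 TPM in CDCA. Its call was marginal (log2 fold change 0.36, SE 0.12, limma FDR 0.046), and the lowest CDCA library lay just above the highest CON library. Without CON library 1, 2 or 3 the FDR was 0.053, 0.099 and 0.13, and without CDCA library 2 or 3 it was 0.097 and 0.096.

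The 5 that did not pass included subunits of both the lid and the base. PSMD6 changed least, at 59.9, 62.8 and 58.3 TPM in CON and 63.7, 63.9 and 61.8 TPM in CDCA (log2 fold change 0.06, SE 0.04, limma FDR 0.24). PSMD14, the deubiquitinase of the lid, was low and scattered, with 2.71, 1.44 and 1.12 TPM in CON and 1.67, 1.83 and 2.32 TPM in CDCA (log2 fold change 0.13, SE 0.22, limma FDR 0.65). PSMD2, a large scaffold of the base, ranged from 3.22 to 4.65 TPM in CON and from 1.39 to 5.13 TPM in CDCA, so that no change could be resolved (log2 fold change -0.16, SE 0.35, limma FDR 0.73). PSMD1, the other large scaffold, did not overlap between the groups, with 59.0 to 66.0 TPM in CON and 66.9 to 70.6 TPM in CDCA, yet missed the threshold (log2 fold change 0.12, limma FDR 0.087). PSMD1 passed without CON library 1 (FDR 0.046) and with TPM rescaled to the same sum (FDR 0.036). PSMD7, the partner of PSMD14, overlapped (log2 fold change 0.10, limma FDR 0.19).

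**Figure D2:**
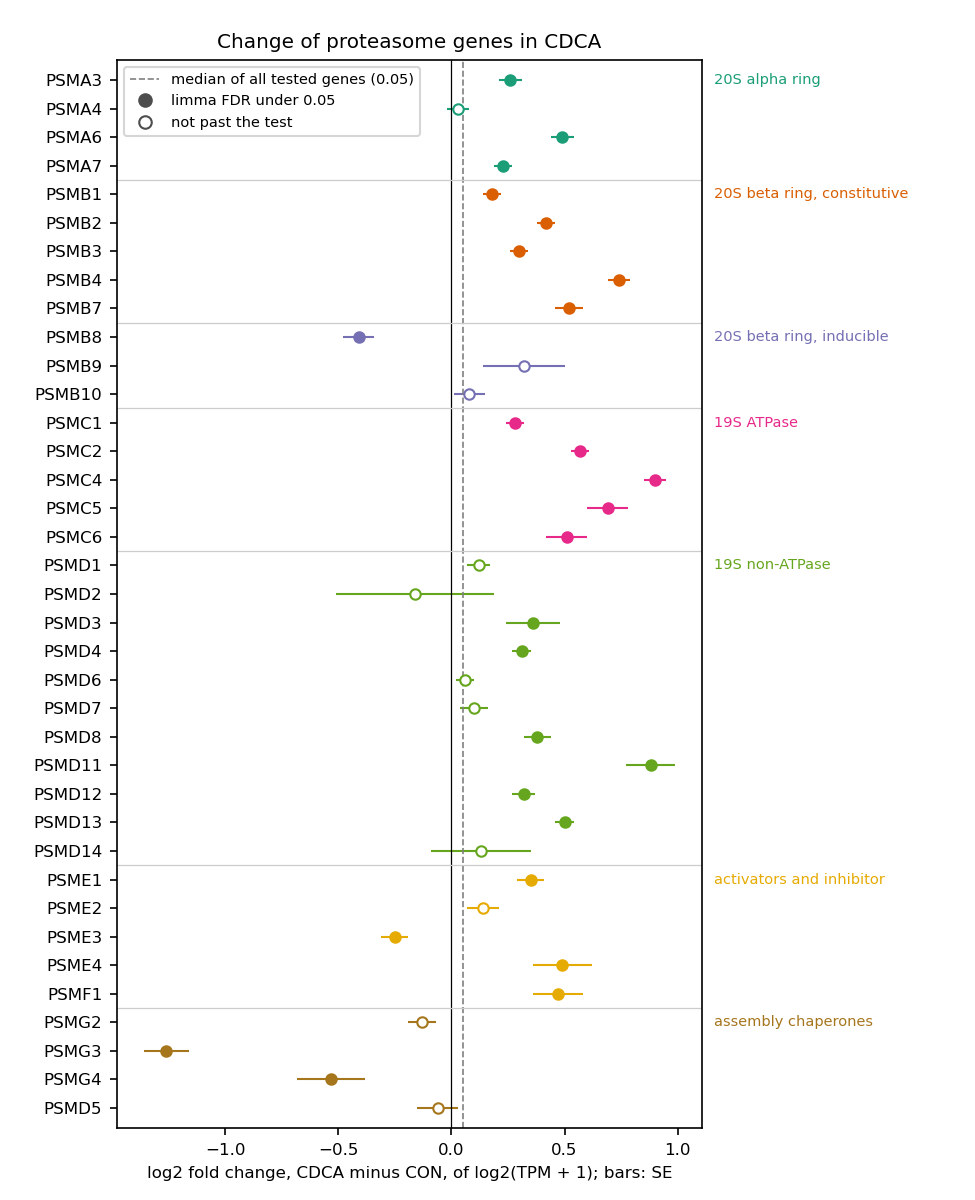
Log2 fold change of log2(TPM + 1), CDCA minus CON, of the 37 tested proteasome genes, with bars for the SE, filled points for a limma FDR under 0.05 and a dashed line at the median of all tested genes (0.05). Core and 19S subunits lie mostly to the right of the line, up to 0.90 for PSMC4, and PSMG3 lies farthest to the left at -1.26.

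Activators that cap the core in place of the 19S particle changed in both directions. PSME1 (PA28 alpha) measured 81.8, 78.3 and 70.6 TPM in CON and 94.6, 101.7 and 99.01 TPM in CDCA. It rose without overlap (log2 fold change 0.35, SE 0.06, limma FDR 0.0032). Its ring partner PSME2 (PA28 beta) was at 34.1, 35.0 and 29.9 TPM in CON and 34.6, 37.8 and 36.9 TPM in CDCA, which overlapped (log2 fold change 0.14, SE 0.07, limma FDR 0.13). Both are known as interferon-inducible. The level of PSME2 per PSME1 was 0.417 to 0.447 in CON and 0.366 to 0.373 in CDCA, a ratio likewise formed with the values known. PSME3 (PA28 gamma), the nuclear activator, was 29.5, 29.7 and 30.0 TPM in CON and 23.6, 26.6 and 24.1 TPM in CDCA. It fell, with CON libraries that were nearly equal (log2 fold change -0.25, SE 0.06, limma FDR 0.0085).

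PSME4 (PA200), the large nuclear activator, lay at 1.75, 1.33 and 1.35 TPM in CON and 2.28, 2.99 and 2.21 TPM in CDCA (log2 fold change 0.49, SE 0.13, limma FDR 0.019). At this low level the call depended on single libraries, with an FDR of 0.060, 0.055 and 0.055 without CON library 2, CON library 3 and CDCA library 2. PSMF1 (PI31), named as an inhibitor of the core, was 13.3, 13.0 and 16.1 TPM in CON and 20.1, 22.1 and 17.9 TPM in CDCA. It rose, and its groups did not overlap (log2 fold change 0.47, SE 0.11, limma FDR 0.0089).

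Of the assembly chaperones found by name, 2 of 4 tested fell and the others did not pass, with a median log2 fold change of -0.33. PSMG3, which works with PSMG4 in forming the alpha ring, showed the largest change of the whole family, at 26.9, 27.6 and 25.2 TPM in CON and 9.14, 12.1 and 10.47 TPM in CDCA. The CDCA mean was 0.397 of the CON mean, and the log2 fold change was -1.26 (SE 0.10, limma FDR 8.6e-05). It stayed between -1.35 and -1.17 when any 1 library was left out. PSMG4 measured 62.2, 74.9 and 72.4 TPM in CON and 39.3, 60.0 and 46.2 TPM in CDCA. The groups did not overlap but the spread in CDCA was wide (log2 fold change -0.53, SE 0.15, limma FDR 0.024). This call was lost without CON library 2 (FDR 0.076), CON library 3 (0.070), CDCA library 1 (0.055) or CDCA library 3 (0.068).

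PSMG2, which acts at an earlier step with PSMG1, lay at 28.9, 30.1 and 26.03 TPM in CON and 24.9, 25.8 and 26.6 TPM in CDCA. These values overlapped (log2 fold change -0.13, SE 0.06, limma FDR 0.13), although the test was passed without CON library 3 (FDR 0.028). PSMD5, a chaperone of the 19S base, was at 11.4, 8.86 and 9.58 TPM in CON and 9.48, 9.12 and 9.64 TPM in CDCA (log2 fold change -0.06, SE 0.09, limma FDR 0.59). PSMD10 (gankyrin), another chaperone of the base, was 0.62, 0.99 and 1.09 TPM in CON and 0.75, 0.33 and 0.16 TPM in CDCA, too low to be tested. Of the IDs that match the name alone, PSMC3IP was 12.5, 13.99 and 11.8 TPM in CON and 6.11, 6.23 and 5.34 TPM in CDCA (ratio of the means 0.461, limma FDR 0.00014). PSME3IP1 had means of 0.747 TPM in CON and 1.08 TPM in CDCA and was not tested.

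Summed over the 42 genes, proteasome mRNA amounted to 2930 ± 70 TPM in CON and 3747 ± 120 TPM in CDCA (SD, n = 3), a ratio of 1.28. As a share of all listed TPM this was 0.796% to 0.817% in the CON libraries and 1.04% to 1.07% in the CDCA libraries. The sum of the constitutive beta subunits had a ratio of 1.42 and that of the ATPases 1.44, followed by 1.23 for the non-ATPase subunits, 1.22 for the alpha ring and 1.17 for the activators and inhibitor. The inducible beta subunits summed to 51.32 TPM in CON and 44.75 TPM in CDCA, a ratio of 0.872, and the assembly chaperones to 135.5 and 94.64 TPM, a ratio of 0.698. The 19S sum per 20S sum was 0.654, 0.634 and 0.636 in CON and 0.629, 0.633 and 0.624 in CDCA, a ratio of the means of 0.980. The assembly sum per 20S sum was 0.0801, 0.0872 and 0.0856 in CON and 0.0401, 0.0489 and 0.0440 in CDCA, with no overlap. Sums weight abundant genes most and were not tested.

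**Figure D3:**
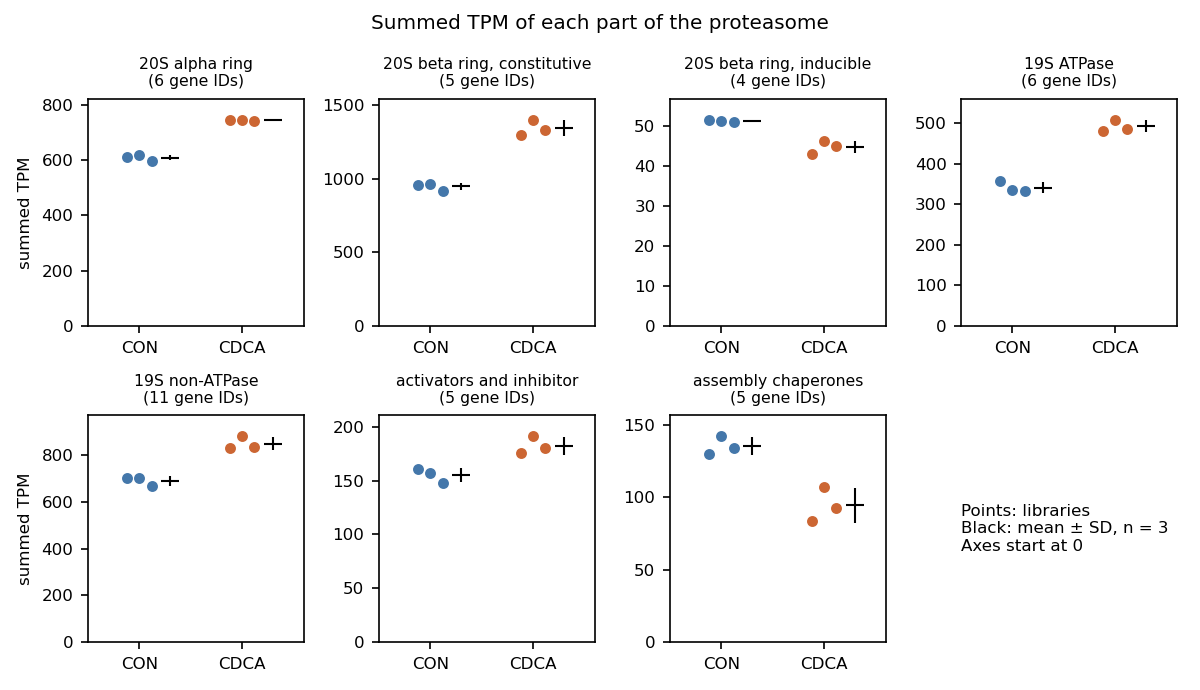
Summed TPM of each of the 7 parts of the proteasome in the 3 CON and 3 CDCA libraries (points), with the mean ± SD in black and every axis starting at 0. The CDCA libraries lie above the CON libraries in 5 parts and below them for the inducible beta subunits (ratio 0.872) and the assembly chaperones (ratio 0.698).

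Some expected genes were not listed under their own names, so the IDs were also searched by description, with the values already known. PSMA1, PSMA2, PSMB6 and PSMD9 were found in this way under blank names. PSMA1 rose from 83.7, 77.7 and 74.4 TPM to 106.4, 109 and 107 TPM (log2 fold change 0.45, SE 0.05, limma FDR 0.00042). PSMB6, which carries the caspase-like site, rose from 222, 232 and 231 TPM to 258, 283 and 259.5 TPM (log2 fold change 0.22, SE 0.05, limma FDR 0.0070). The groups of both genes were apart. The PSMB6 call passed in 8 of 9 other settings with all libraries, where its log2 fold change went down to 0.07 and its FDR up to 0.18. PSMA2 was 61.5 to 65.9 TPM in CON and 60.3 to 70.5 TPM in CDCA, which overlapped (log2 fold change 0.04, limma FDR 0.62). PSMD9, a chaperone of the 19S base, was 18.2 to 19.6 TPM in CON and 16.4 to 19.3 TPM in CDCA, also with overlap (log2 fold change -0.09, SE 0.07, limma FDR 0.30). With these 4 IDs and TPM as deposited, 41 were tested, of which 24 rose (58.5%, against 29.3% of all tested genes), 4 fell (9.76%, against 23.9%) and 13 did not pass. The median log2 fold change was 0.28.

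The naming of a pair of IDs was unsettled. The ID named PSMA6 is described in the table as the catalytic subunit of protein-only RNase P, and in the RefSeq order of Sscrofa11.1 the gene of that enzyme (KIAA0391) lies next to PSMA6. An ID named BRWD1 is described as PSMG1, and BRWD1 is the neighbour of PSMG1 in the same order. That ID lay at 36.1 to 47.2 TPM in CON and 39.8 to 43.8 TPM in CDCA (limma FDR 0.99). Reads of neighbouring genes cannot be told apart here, so the values of both IDs are uncertain. PSMB8 and PSMB9 are separated in that order only by TAP1, and PSME2 and PSME1 only by EMC9.

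Genes known to control the transcription of proteasome genes were described as a list of 12 symbols, of which 11 were found and 9 tested: 6 rose (66.7%, against 29.3% of all tested genes) and 3 did not pass, with a median log2 fold change of 0.40. Without mtDNA-encoded genes in the totals 4 were higher (20.1% of all tested genes), as MAFK (FDR 0.086) and KEAP1 (FDR 0.088) no longer passed; KEAP1 also turned to -0.12 (FDR 0.46) when its highest transcript was used. MAFK further lost its call without CDCA library 1 (FDR 0.051) or 2 (0.060). NFE2L1, the endoplasmic reticulum-bound factor that raises subunit genes, was 25.1, 26.2 and 30.0 TPM in CON and 63.1, 64.2 and 63.1 TPM in CDCA. The groups were far apart, with a ratio of the means of 2.34 (log2 fold change 1.20, SE 0.07, limma FDR 2.8e-05). MAFF, a small MAF partner of such factors, changed most, from 4.13, 4.47 and 3.42 TPM to 15.4, 17.1 and 15.0 TPM (log2 fold change 1.75, SE 0.10, limma FDR 2.8e-05). BTRC, a subunit of a ubiquitin ligase, rose from 1.40 to 2.19 TPM in CON to 2.31 to 5.51 TPM in CDCA (log2 fold change 0.82, SE 0.26, limma FDR 0.033). The BTRC call was lost without CON library 2 (FDR 0.096), CON library 3 (0.078), CDCA library 2 (0.088) or CDCA library 3 (0.094). NFE2L3, a relative of NFE2L1, was 1.38, 1.65 and 1.42 TPM in CON and 0.23, 0.23 and 0.33 TPM in CDCA, and its mean was under the limit for the test.

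Proteins that bind, equip or feed the proteasome outside the PSM names made a list of 24 symbols, with 23 found (no ID was found for SEM1) and 20 tested. Of these, 11 rose (55.0%, against 29.3% of all tested genes), 1 fell (against 23.9% of all tested genes) and 8 did not pass, with a median log2 fold change of 0.29. Without mtDNA-encoded genes in the totals 9 were higher and 4 lower (20.1% and 31.9% of all tested genes), since FAF1 and RAD23B no longer rose and UFD1, UCHL5 and PAAF1 passed as lower. ZFAND5, a stimulator of the 26S proteasome, went from 39.6, 37.4 and 37.7 TPM in CON to 101.5, 108 and 99.3 TPM in CDCA (log2 fold change 1.41, SE 0.05, limma FDR 4e-06). ADRM1, the ubiquitin receptor RPN13 of the 19S particle, went from 32.7, 40.8 and 43.3 TPM to 89.6, 107 and 93.0 TPM (log2 fold change 1.30, SE 0.12, limma FDR 0.00017). Each of these was higher in every CDCA library than in any CON library, and their log2 fold changes were larger on this scale than that of PSMC4 (0.90). TXNL1, a thioredoxin-like protein bound to the 19S particle, rose from 1.83 to 2.02 TPM in CON to 5.32 to 6.11 TPM in CDCA (log2 fold change 1.21, SE 0.09, limma FDR 6.3e-05). POMP, the chaperone that completes the core and is not named PSM, was 53.8, 52.8 and 51.5 TPM in CON and 64.8, 64.7 and 68.1 TPM in CDCA. Unlike PSMG3 and PSMG4 it rose (log2 fold change 0.32, SE 0.04, limma FDR 0.0008). The single fall was that of PITHD1 (log2 fold change -0.22, limma FDR 0.027), with an FDR of 0.066, 0.084, 0.087 and 0.068 without CON library 1, CON library 2, CDCA library 1 and CDCA library 2.

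Of 12 symbols for ubiquitin itself and the enzymes that activate and carry it, 10 were found and tested, of which 6 rose (60.0%, against 29.3% of all tested genes) and 4 did not pass, with a median log2 fold change of 0.32. Without mtDNA-encoded genes in the totals 5 were higher (20.1% of all tested genes), and UBE2D3 (FDR 0.13) no longer passed. UBB, a polyubiquitin gene, was 1499, 1594 and 1449.8 TPM in CON and 3204, 4045 and 2867 TPM in CDCA. The ratio of the means was 2.23, and the CDCA libraries varied widely yet lay clear of CON (log2 fold change 1.14, SE 0.12, limma FDR 0.00035). UBE2R2, a ubiquitin-conjugating enzyme, rose from 4.75 to 5.48 TPM in CON to 7.73 to 8.69 TPM in CDCA (log2 fold change 0.62, SE 0.08, limma FDR 0.00082).

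A list of 10 interferon and class I peptide-loading genes was set beside the immunoproteasome subunits: 7 were tested, of which 2 rose (28.6%, close to the 29.3% of all tested genes), 1 fell (14.3%, against 23.9%) and 4 did not pass, with a median log2 fold change of 0.07. Without mtDNA-encoded genes in the totals 8 were tested, of which 2 were higher and 3 lower (20.1% and 31.9% of all tested genes), ERAP1 and NLRC5 being added to the falls. TAP2, a subunit of the peptide transporter, rose from 9.67 to 10.4 TPM in CON to 13.84 to 14.03 TPM in CDCA (log2 fold change 0.44, SE 0.05, limma FDR 0.00063). B2M, the light chain of class I molecules, rose from 1438 to 1514 TPM to 1835 to 1971 TPM (log2 fold change 0.38, SE 0.04, limma FDR 0.00044). TAPBP, the loading chaperone tapasin, fell from 25.5 to 28.8 TPM to 20.3 to 23.2 TPM (log2 fold change -0.31, SE 0.07, limma FDR 0.0086). IRF1, STAT2 and NLRC5 averaged under 1 TPM with TPM as deposited and were not tested. NLRC5, a regulator of class I genes, was 1.33, 1.25 and 1.30 TPM in CON and 0.76, 0.76 and 0.57 TPM in CDCA, without overlap. In the 3 other settings that tested it with all libraries it was lower (log2 fold change -0.64 to -0.44, limma FDR at most 0.044). In the 3 fits without a single library that tested it, the log2 fold change was -0.46 to -0.38 and the limma FDR reached 0.054, so the call was not kept in each of them.

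**Figure D4:**
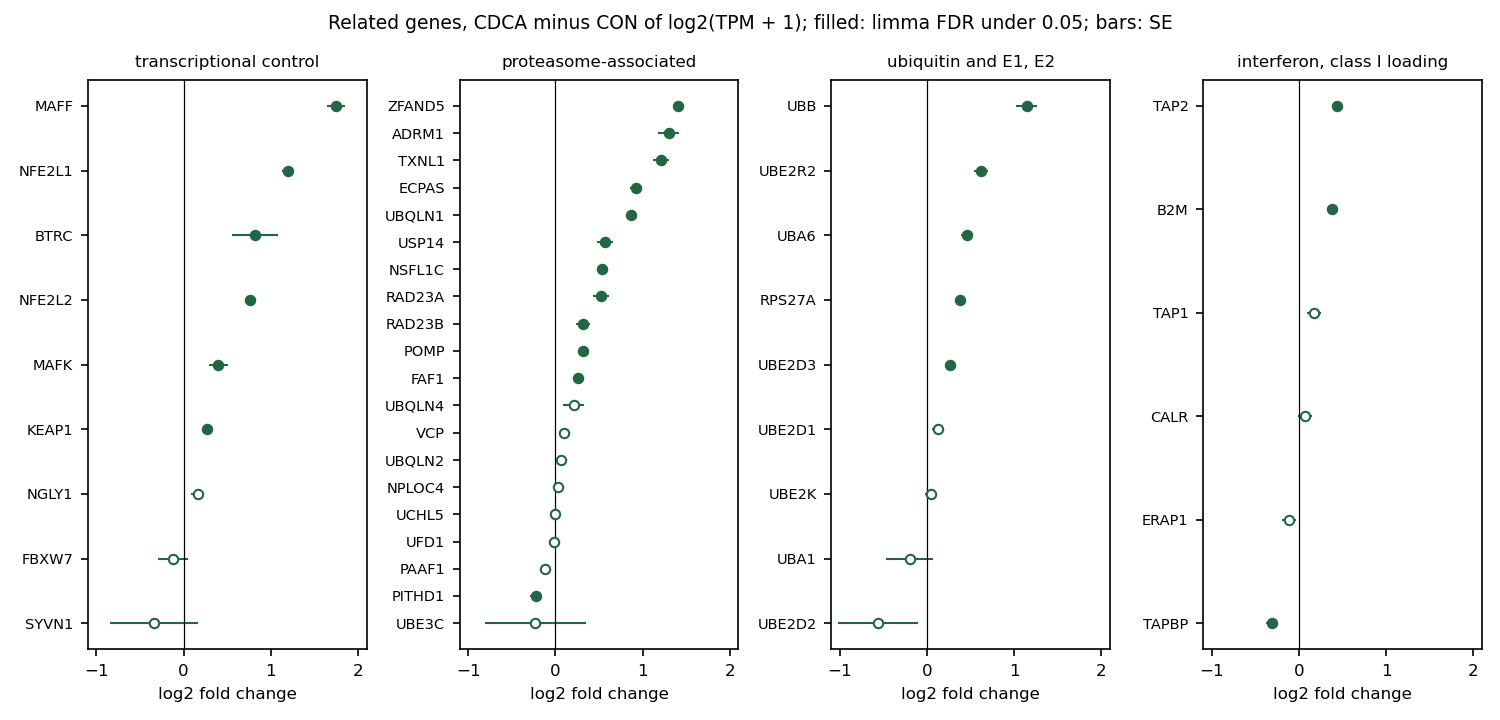
Log2 fold change of log2(TPM + 1), CDCA minus CON, with the SE as bars, for tested genes of 4 related lists, filled where the limma FDR was under 0.05. MAFF (1.75) and NFE2L1 (1.20), ZFAND5 (1.41) and ADRM1 (1.30), and UBB (1.14) head their panels, and the interferon and class I panel stays between -0.31 and 0.44.

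TPM are shares of a total, and mtDNA-encoded mRNA took a smaller part of that total in CDCA. Each library was therefore also scaled to the same total of listed TPM without the mtDNA-encoded genes. The median of all tested genes then moved by -0.130 on the log2 scale, and 20.1% of 8707 genes were higher and 31.9% lower. Of the 37 tested proteasome genes, 18 were then higher and 5 lower. PSMA3 (log2 fold change 0.11, limma FDR 0.094), PSMA7 (0.08, FDR 0.12), PSMB1 (0.03, FDR 0.47) and PSMD3 (0.21, FDR 0.16) no longer passed. PSMG2 passed as lower (-0.28, FDR 0.0084). PSMA4, PSMB10, PSMD1, PSMD6, PSMD7 and PSME2, which had not passed, turned from values just above 0 to values just below it. PSMB4, PSMB7, all 5 tested ATPases, PSMD11, PSMD13, PSMF1, NFE2L1, ADRM1 and UBB rose, and PSMB8, PSMG3 and PSMG4 fell, under both scalings. The median log2 fold change of the alpha ring went from 0.24 to 0.09, of the constitutive beta subunits from 0.42 to 0.26 and of the inducible ones from 0.08 to -0.06. For the ATPases it went from 0.57 to 0.42, for the non-ATPase subunits from 0.31 to 0.15, for the activators and inhibitor from 0.35 to 0.20 and for the assembly chaperones from -0.33 to -0.48. The summed proteasome TPM then had a ratio of 1.15. A milder scaling, to the same median ratio over genes in each library, moved the median of all tested genes by -0.044. Of the 37 members 21 were then higher and 5 lower, against 26.4% and 27.0% of all tested genes. Over all 15 other settings, 17 of the 22 rises and 3 of the 4 falls kept their call in each setting in which the gene was tested.

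**Figure D5:**
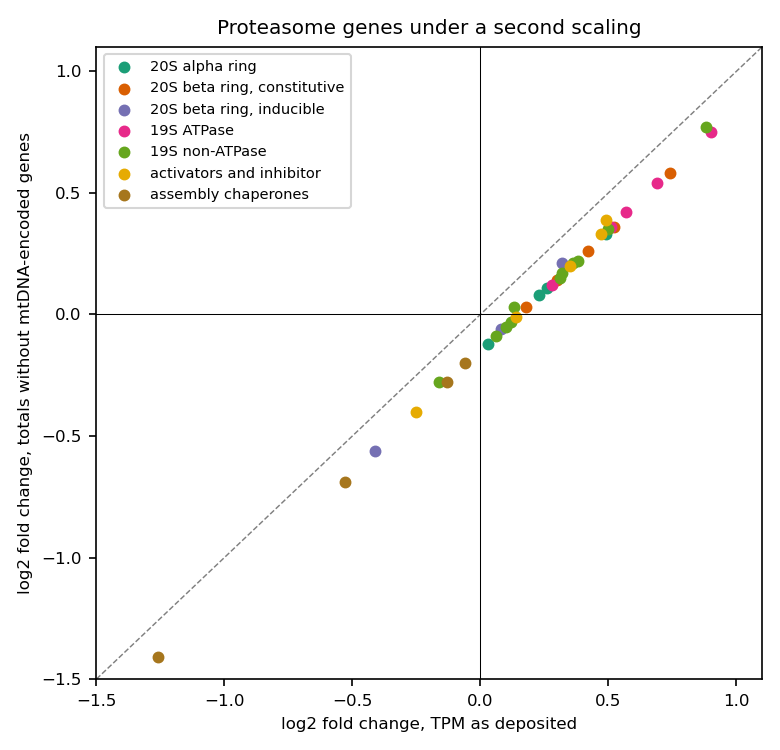
Log2 fold change of the tested proteasome genes under the deposited TPM (horizontal) and under totals without the mtDNA-encoded genes (vertical), coloured by part, with the dashed line marking equality. The points lie just under the line; the median of all tested genes moved by -0.130 between the scalings, and PSMG3 stays lowest in both.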

How the data were processed

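RNA was extracted from IPEC-J2 cells with Trizol, and 3 libraries per group were made with an Illumina TruSeq kit. The authors quantified expression with RSEM and deposited TPM per annotated transcript, with at most 2 decimals. The submitters' processing notes list Bowtie 0.12.2 and the build mm10, whereas the IDs are Ensembl pig gene IDs; the roles of both are not given in the sources used here. The listed TPM reached between 35.2% and 36.6% of 1000000 per library, and the table gives no read counts, so the reads behind a single value are not known and values carry no counting interval; the study's read totals per library were not used here. A library's TPM can also move together when a few genes take more or less of the total.

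TPM were summed per gene ID. An ID was named by a table of symbols (15029 of 31908 IDs), otherwise by the deposited name, and 17501 IDs had a symbol; the proteasome genes were found by deposited name alone. Groups came from the sample labels. CDCA and CON were compared with limma 3.58.1 in R 4.3.3 (lmFit, eBayes with a trend) on log2(TPM + 1), in all 6 libraries, for genes that averaged 1 TPM or more, with Benjamini-Hochberg adjustment over all 8708. edgeR, which the authors used, needs counts and was not used. Tables and plots were made with Python 3.11.15, pandas 2.3.3 and matplotlib 3.10.9. On simulated data for CDCA against CON (5 sets of 8511 to 8548 tested genes), changes of 0.5 on the log2 scale were called in 96.8% to 100% and changes of 1 in 100%, with 5 to 15 false calls a set. Every simulated gene had the same spread, the median residual SD of 0.112, and only a small part of the genes was changed. These shares therefore do not hold for genes of wider spread, such as PSMD2 (residual SD 0.537), PSMD14 (0.319) and PSMB9 (0.253).

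The genes and lists were chosen with earlier results of these data known. Every gene ID that matched the name was accounted for; catalytic and inducible beta subunits, activators, PSMF1, assembly chaperones, PSMD14 and the largest and smallest change of each other part were given in full, as were the 3 largest changes of each related list and POMP, SEM1, ADRM1, NFE2L1 and UBB; some list genes are counted but not reported here by name. PITHD1, NFE2L3, NLRC5, MAFK, KEAP1 and the genes that changed call with the scaling were named after their values were seen. A list was described by its counts and median, with no set test. Alternatives were a pseudocount of 0.1 TPM, no filter, a mean of at least 5 TPM, 3 other scalings, the highest transcript of an ID in place of the sum, no trend, a replicate block and leaving out each library; the count with the IDs named by description was added after the data were seen. Promoter motifs were not analysed here.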

Additional observations from a re-analysis of the deposited data

How the results depend on the processing

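Of the 37 tested proteasome genes, 22 were higher and 4 lower; the counts ran from 18 to 23 and from 3 to 5 over 9 other settings, and from 20 to 22 and from 3 to 4 when 1 library was left out. The summed ratio of 1.28 became 1.15 when the listed TPM without mtDNA-encoded genes were scaled to the same sum in each library. It lay between 1.26 and 1.30 when 1 library was left out. Over single members and settings, 521 comparisons kept their side of the threshold, 24 lost it and 5 gained it, and no called member turned its direction. PSMD3 lost its call in 11 of 15 settings and PSMG4 in 6; the cause was not tested. The replicate block gave 21 higher and 4 lower. Same-numbered libraries did not deviate together (correlations -0.035, -0.092 and -0.051), so the numbers were not taken as pairs, and no CON library correlated best with its own number. The reads behind a value are not known; of the tested members PSMD2 (SE 0.35), PSMD14 (SE 0.22) and PSMB9 (SE 0.18), all under 10 TPM, had the widest errors.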

Other observations

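Some proteasome genes had listed transcripts that did not move alike, which was noticed after the values were seen and was not tested. In 16 of the 37 tested members, 2 or more transcripts had a mean of at least 1 TPM. The sum for PSMD5 was similar in both groups, but its leading transcript ran from 5.62 to 8.93 TPM in CON and from 7.76 to 9.36 TPM in CDCA, while the second one lay at 2.43, 3.11 and 2.58 TPM in CON and 1.72, 0.79 and 0.28 TPM in CDCA. The second transcript of PSMA4 was 2.11, 2.04 and 2.21 TPM in CON and 1.44, 1.70 and 0.89 TPM in CDCA, beside a leading transcript with a ratio of the means of 1.08. For PSMB10 the second transcript was 1.40 to 1.53 TPM in CON and 0.56 to 0.94 TPM in CDCA, beside a leading transcript with a ratio of 1.11. The lower sum of PSMB8 came mostly from its leading transcript (ratio 0.620), with the second at a ratio of 0.887, whereas both transcripts of PSMG4 were lower (0.724 and 0.613). In PSME3 the leading transcript had a ratio of 0.803 and the second a ratio of 1.01. The table gives no transcript IDs, so these transcripts could not be named, and the split of shared reads between transcripts of a gene is an estimate.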
